A study of Mus musculus with 2 samples.

Results

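The genes described here are 9 that mouse myoblasts use to recognise each other, adhere and fuse: the fusogens Mymk (myomaker) and Mymx (myomerger, also called minion), the cadherins Cdh15 (M-cadherin) and Cdh2 (N-cadherin), the promyogenic receptors Cdon, Boc and Neo1 (neogenin), the adhesion molecule Ncam1 and the growth factor receptor Met. They were taken from a list of names, through probe sets (groups of array probes read as 1 value) that the platform annotation assigns to a single gene, and are 9 of the 19938 named genes on the array. Each of the 9 had 1 probe set. The table lists Mymk and Mymx under these current symbols.

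Total RNA was measured on 2 Affymetrix arrays, 1 per culture. C2C12, a clonal mouse myoblast line, was grown in 10% fetal bovine serum and kept for 7 days after confluence in 2% horse serum, in which the cells fuse into myotubes, the multinucleated precursors of muscle fibres. The cultures then received an adenovirus (multiplicity of infection 30) for 48 h. In 1 culture the virus, Ad-caERα, carried a constitutively active estrogen receptor α, as the sample title and description give it (its transduction label reads Ad-caER[sigma]), and in the control it was Ad-DsRed, which carries a red fluorescent protein. The virus was thus added after the differentiation period, both cultures were infected, and no uninfected culture is part of the comparison. The labels do not say how much of each culture had fused, and in RNA from a whole culture fewer fused cells and less RNA per cell cannot be told apart.

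Fusion of myoblasts proceeds from recognition and adhesion through remodelling of the actin cytoskeleton to the merging of membranes. Cadherins and immunoglobulin superfamily proteins such as Cdon, Boc and NCAM hold the cells together and signal to the differentiation programme. Mymk, a membrane protein with several transmembrane segments, is needed for the early mixing of lipids, and Mymx, a microprotein, for the later opening of the fusion pore. Both fusogen genes are switched on during differentiation by myogenic factors that bind E-boxes. Met, the receptor for hepatocyte growth factor, is known for the activation and migration of muscle progenitors and is typical of undifferentiated myoblasts.

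Of the 9 genes, Mymx and Met had the lowest differences between the cultures, and the others lay closer to 0. Values are log2 RMA signals, and each difference has the control subtracted, so a negative value means a lower signal in Ad-caERα. Mymx was 1.73-fold lower in the Ad-caERα culture and Met 1.49-fold lower, whereas Mymk, Cdh15, Ncam1 and Neo1 were between 1.11-fold and 1.20-fold lower. Cdh2, Boc and Cdon differed by at most 1.05-fold. With 1 array per culture there is no replicate error, no test could be made, and a difference between cultures cannot be told apart from the effect of the vector.

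**Figure D1:**
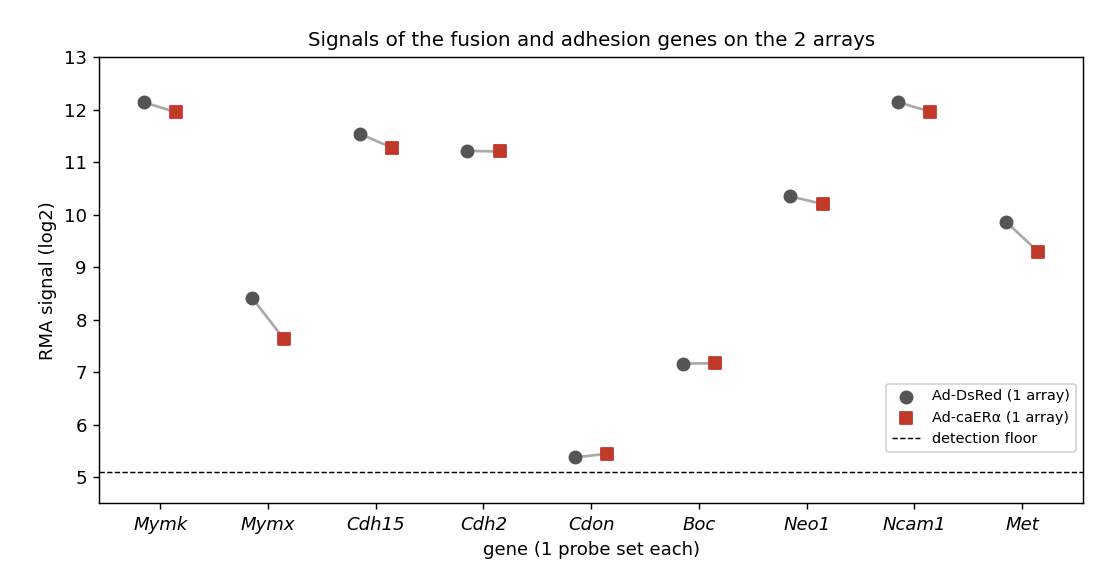
RMA signal (log2, vertical axis) of the 9 fusion and adhesion genes on the Ad-DsRed array (grey circles) and the Ad-caERα array (red squares), joined by a line for each gene, with the detection floor dashed. The steepest lines belong to Mymx, from 8.42 to 7.63, and Met, from 9.87 to 9.29, while Cdh2 and Boc are flat; heights of different probe sets are not comparable with each other.

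Several yardsticks give the size of these differences. All 9 genes lay above a detection floor of 5.11, set from olfactory and vomeronasal receptor genes that muscle cells are not thought to express, on both arrays. Over the 13554 named genes above that floor, the median difference was 0.0017 and the SD 0.27, and the middle 90% ran from -0.36 to 0.38. Probe sets of the same gene disagreed with an SD of 0.13 over 770 genes with several of them. Mymx and Met lay outside the middle 90% and 7 of the genes inside it. By a rule of at least 1.5-fold, 1 of the 9 genes (Mymx) was lower, against 0.885% of all measured genes, and 0 were higher, against 1.82%. At 2-fold, 0 of the 9 were lower (background 0.0959%) and 0 were higher (background 0.590%).

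Of the 9 genes 7 were below 0 and 2 above, several by very little, where 48.8% of all measured genes were below 0. The median over the 9 was -0.18, and -0.15 without Mymx and Met. Median centring takes the gap between the medians of the measured genes on the 2 arrays from every difference alike. It moved the median difference of all measured genes from 0.0017 to -0.03. Boc then fell below 0 as well, giving 8 of 9, beside 56.5% of all measured genes. Correcting the difference for mean signal by loess also put Boc below 0, giving 8 of 9, beside 49.7%. The 9 genes were chosen by name, with earlier results of these data known, and the count is a description of these arrays.

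**Figure D2:**
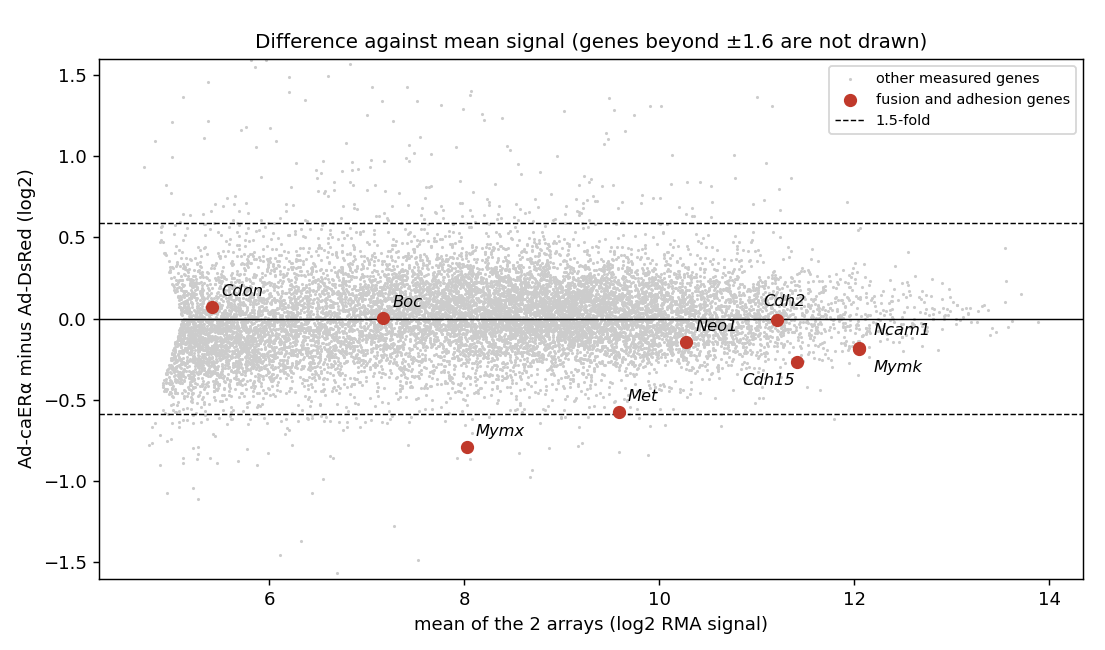
Difference between the cultures (Ad-caERα minus Ad-DsRed, log2, vertical axis) against the mean signal of the 2 arrays (log2, horizontal axis) for all measured genes (grey) and the 9 fusion and adhesion genes (red), with 1.5-fold dashed. Mymx, at -0.79, lies beneath the dashed line and Met, at -0.57, just inside it, while the other 7 lie within the grey cloud between -0.27 and 0.07.

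Of the fusogens, Mymx had the lower difference. Mymx (probe set 10451142), which encodes the microprotein that completes membrane fusion, had a signal of 8.42 in Ad-DsRed and 7.63 in Ad-caERα, a difference of -0.79. Counting Mymx itself, 38 of the 13554 measured genes were as low or lower in difference. Among the 2403 genes with a mean signal within 0.5 of that of Mymx, 1.04% were as far from 0 in either direction.

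Mymk (probe set 10481175), its partner in fusion, had a signal of 12.14 in Ad-DsRed and 11.95 in Ad-caERα. Its difference of -0.19 (1.14-fold lower) was above the disagreement of 0.13 between probe sets of a gene but ordinary for the array, with 37.4% of measured genes as far from 0. At its own high signal the spread is narrower, and 21.4% of 294 genes with a similar mean were as far from 0. Taking the difference of Mymk from that of Mymx left -0.60 on the log2 scale, where the SD of the difference over single measured genes was 0.27. Whether this gap exceeds the spread between cultures was not tested.

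Among the cadherins, which bind like to like across cell contacts and are anchored to actin by catenins, the muscle-restricted form was the lower. Cdh15 (probe set 10576175), M-cadherin, had a signal of 11.54 in Ad-DsRed and 11.28 in Ad-caERα, 1.20-fold lower. A difference of -0.27 was as far from 0 as that of 20.8% of measured genes, or 9.81% of 622 genes of similar signal. Cdh2 (probe set 10457644), the more widely expressed N-cadherin, read 11.21 in Ad-DsRed and 11.20 in Ad-caERα. Its difference was -0.010, and 94.9% of genes at its signal were as far from 0 or farther.

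The promyogenic receptors showed little difference. Cdon and Boc are related immunoglobulin and fibronectin repeat proteins that associate with cadherins and bind hedgehog ligands, and neogenin is a receptor for netrins and repulsive guidance molecules. Cdon (probe set 10584229) had signals of 5.37 in Ad-DsRed and 5.45 in Ad-caERα, close to the floor of 5.11, where RMA compresses differences. Boc (probe set 10439612) was at 7.16 and 7.17.

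Neo1 (probe set 10594110) went from 10.35 in Ad-DsRed to 10.20 in Ad-caERα, a difference of -0.15 that 42.1% of genes of similar signal matched or exceeded in size. The differences of Cdon (0.07), Boc (0.0054) and Cdh2 were the 3 of the 9 that were smaller than the disagreement between probe sets of a gene. That of Cdon was above it, at 0.14 and 0.18, under quantile normalization and loess correction. Cdon and Boc were the only 2 of the genes above 0.

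Ncam1 (probe set 10593293), the neural cell adhesion molecule that myotubes display before innervation, had a signal of 12.14 in Ad-DsRed and 11.96 in Ad-caERα. It was 1.13-fold lower, a difference of -0.18, and 23.2% of 293 genes of similar signal were as far from 0.

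Met (probe set 10536505), the receptor tyrosine kinase for hepatocyte growth factor, had a signal of 9.87 in Ad-DsRed and 9.29 in Ad-caERα, a difference of -0.57. Of the measured genes, Met included, 129 or 0.952% were as low or lower, and 2.45% of 2290 genes at its signal were as far from 0 in either direction. Its 1.49-fold difference falls just short of the 1.5-fold rule, which it passed under median centring (-0.61), quantile normalization (-0.59) and loess correction (-0.60).

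Promoter sequence is described for 4 of the 9 genes (Met, Cdh15, Cdon and Neo1), from a RefSeq table of build GRCm38.p6. Cdh2 was left out by a rule on its chromosome, and Mymk, Mymx, Boc and Ncam1 had no entry. The 250 bases before the start were searched on both strands for the general E-box pattern CANNTG, in which N is any base. That pattern is broader than the E-boxes of myogenic factors. Also searched were the full estrogen response element GGTCANNNTGACC and its half-site GGTCA, which the full element contains. The windows of Met and Cdh15 are printed because these had the lowest differences of the 4, and were picked after their values were seen. Both are on the + strand, 5′ to 3′, Met at chr6:17463707-17463956 and Cdh15 at chr8:122848124-122848373, with E-boxes in capitals.
Met: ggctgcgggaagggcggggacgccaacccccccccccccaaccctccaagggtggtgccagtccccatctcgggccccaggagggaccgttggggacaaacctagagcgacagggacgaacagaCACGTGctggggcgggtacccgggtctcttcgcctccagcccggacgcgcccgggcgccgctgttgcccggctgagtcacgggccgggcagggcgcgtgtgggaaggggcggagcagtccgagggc
Cdh15: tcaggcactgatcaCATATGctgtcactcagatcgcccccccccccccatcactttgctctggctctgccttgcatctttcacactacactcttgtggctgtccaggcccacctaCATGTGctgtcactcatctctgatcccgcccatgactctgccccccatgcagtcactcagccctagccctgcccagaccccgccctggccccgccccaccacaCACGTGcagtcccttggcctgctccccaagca

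The Cdh15 window holds 3 E-boxes and the Met window 1, while the windows of Cdon and Neo1 hold 0. An E-box is common, found in 66.2% of 32851 RefSeq promoter windows of the same length, with a median of 1 match. The full estrogen response element was in 0 of the 4 windows and in 0.0639% of all windows. A half-site was in 1 of the 4, that of Cdon, and in 35.2% of all windows. Binding of the receptor or of myogenic factors was not measured, and more distant sequence was not searched.

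The other surface and membrane proteins of fusion had a median near 0 with a few larger differences. Of 29 listed genes 25 were measured, 14 of them below 0, with a median of -0.04. Past 1.5-fold there were 2 lower genes and 1 higher gene. Over all measured genes, the background for this and the following lists, 48.8% were below 0. Past 1.5-fold, 0.885% of them were lower and 1.82% higher. Vcam1, a vascular and muscle cell adhesion molecule, was 1.91-fold lower (9.16 in Ad-DsRed, 8.23 in Ad-caERα), and Itga4, the α4 integrin subunit of its receptor, was 1.77-fold lower (8.97 and 8.15). Vcam1 is also a target of NF-κB in many cells.

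Itgb1, the β1 chain that pairs with α4, differed by -0.03. Il4ra, a receptor chain for interleukin 4, which recruits myoblasts to growing myotubes, was 1.52-fold higher (8.98 and 9.59), and Ehd1, a membrane trafficking ATPase, was 1.39-fold higher (10.16 and 10.64). Fer1l5, Stab2, Adgrb3 and Itga9 were below the floor on both arrays.

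The actin effectors of fusion, which include the Rac activators Dock1 and Dock5 with their Elmo partners and the WAVE complex, were centred near 0. All 25 with a probe set were measured, 14 were below 0, the median was -0.02 and 0 passed 1.5-fold. Elmo1 was highest at 0.58 (5.40 in Ad-DsRed, 5.98 in Ad-caERα) and Brk1, a small WAVE complex subunit, followed at 0.16. Gulp1, an engulfment adaptor (-0.38), and Nck1, an SH2 and SH3 adaptor (-0.29), were lowest.

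Catenins, nectins and the other cadherins were mostly slightly below 0. In this list 18 of 25 genes were measured, 14 below 0 and 4 above, with a median of -0.09 and 0 past 1.5-fold. Afdn (afadin), which links nectins to actin, was lowest at -0.46 (9.47 in Ad-DsRed, 9.01 in Ad-caERα), followed by the δ-catenin gene Ctnnd2 at -0.31. Nectin1 (0.36) and Cdh11 (0.31), a cadherin of mesenchymal cells, were highest. The catenin Ctnnb1, which binds the cadherin tail, differed by -0.04. Under the loess correction 12 of the 18 were below 0.

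The ligands and signalling partners of Cdon, Boc and neogenin leaned the same way by small amounts. Of 34 listed genes 32 were measured, 24 of them below 0 and 8 above, with a median of -0.07 and 0 past 1.5-fold. The lowest were Ihh (-0.35), a hedgehog ligand, and Hjv (-0.32), hemojuvelin, a muscle repulsive guidance molecule that binds neogenin. The highest were Dhh, another hedgehog ligand, whose Ad-DsRed signal of 5.07 lay below the floor (at least 1.20-fold higher), and the netrin gene Ntn4 (0.26).

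Partners of NCAM, the sialyltransferases that modify it and FGF receptors, with which it signals, had a median of -0.03 over 11 measured genes of 18, 7 of them below 0 and 0 past 1.5-fold. Fgfr3 was highest at 0.51 (6.54 in Ad-DsRed, 7.05 in Ad-caERα), followed by Ncam2, a relative of Ncam1, which was below the floor in Ad-DsRed (at least 1.04-fold higher). L1cam, another neural adhesion molecule, was lowest at -0.40 and Fgfr1 next at -0.23. The polysialyltransferase genes St8sia2 and St8sia4, which add polysialic acid to NCAM, were below the floor on both arrays.

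In the hepatocyte growth factor and Met pathway, 15 of 24 measured genes were below 0, with a median of -0.09, and 0 of them passed 1.5-fold. Plxnb1, a semaphorin receptor that associates with Met, was lowest at -0.42 (7.67 in Ad-DsRed, 7.25 in Ad-caERα), followed by Hpn, a protease that activates the growth factor, which was below the floor in Ad-caERα (at least 1.05-fold lower). The highest were Spint1 (0.38), an inhibitor of such proteases, and Hgfac (0.22), an activating protease. The ligand gene Hgf differed by -0.30 (7.86 and 7.56) and the docking protein gene Gab1 by -0.32. The adaptor genes Shc1 (0.12) and Grb2 (0.09), the phosphatase gene Ptpn11 (0.02) and Rapgef1 (0.20), an exchange factor gene, were above 0. Sh3kbp1 (-0.34), Cbl (-0.20), Pik3ca (-0.16), Pik3r1 (-0.13) and Sos1 (-0.13), of the same list, were below 0.

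**Figure D3:**
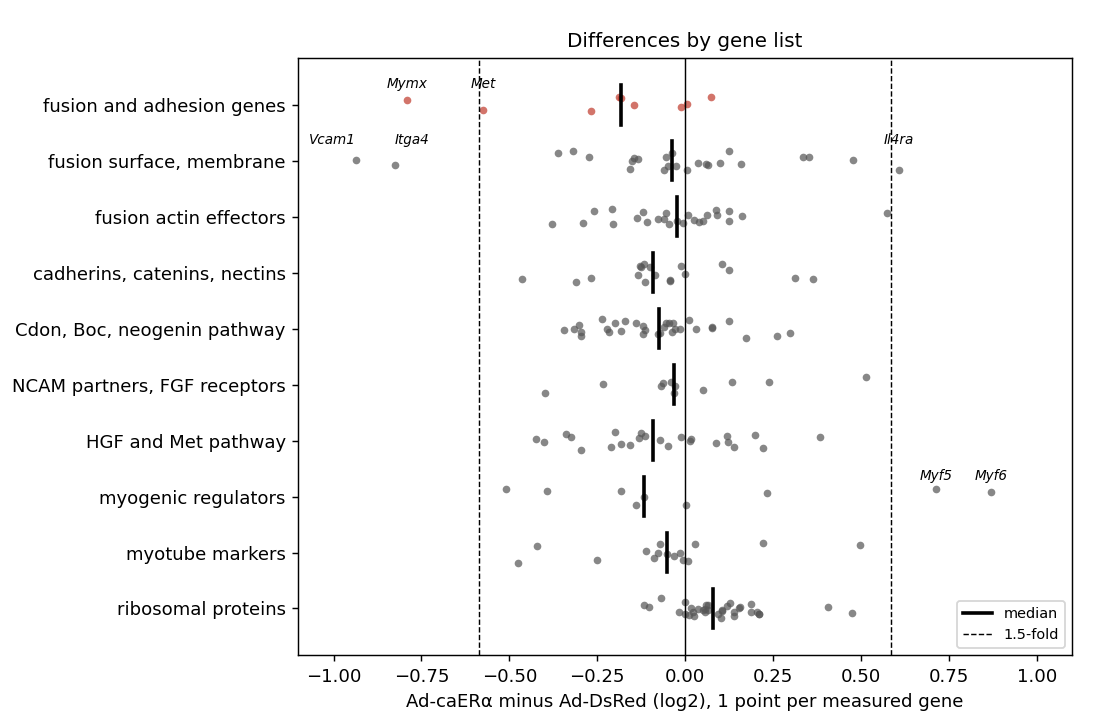
Difference between the cultures (Ad-caERα minus Ad-DsRed, log2, horizontal axis) for each measured gene (points) in the 9 fusion and adhesion genes (red), 7 related lists, myotube markers and ribosomal proteins, with list medians as black bars and 1.5-fold dashed. The medians of the related lists lie between -0.12 and -0.02, and Mymx, Vcam1, Itga4, Il4ra, Myf5 and Myf6 are the labelled genes past 1.5-fold.

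Myogenic transcription factors, several of which drive the fusogen genes, split in direction. Of 9 measured regulators 5 were below 0, with a median of -0.12 and a mean of 0.05. Myf6 (1.83-fold, 5.48 in Ad-DsRed and 6.35 in Ad-caERα) and Myf5 (1.64-fold, 9.46 and 10.17) were higher past the 1.5-fold rule. By the same rule 0 were lower, and over all measured genes 1.82% were higher and 0.885% lower. Six4, a homeobox factor (-0.51), and Mef2c (-0.39) were lowest. Myog, myogenin, differed by -0.18 and Myod1 by 0.0036.

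The cultures carried the markers of myotubes, and among the markers of other lineages only Tagln passed 1.5-fold. All 15 myotube markers were measured, with a median difference of -0.05, 11 below 0 and 0 past 1.5-fold, from Myh4 (-0.48), a fast myosin heavy chain, to Myh7 (0.50), the slow form. Ribosomal protein genes had a median of 0.08, with 28 of 34 above 0. Of the leukocyte, endothelial, adipocyte, epithelial and neural markers 0 passed 1.5-fold, though some were above the floor: 1 of 7 leukocyte, 3 of 6 endothelial, 3 of 6 adipocyte and 4 of 6 epithelial markers, and 3 of the 5 neural markers with a probe set. Among these were Tubb3, a neural tubulin, at 9.08 on both arrays, the endothelial receptor gene Tek (6.73 in Ad-DsRed, 6.60 in Ad-caERα) and the keratin gene Krt8 (6.50 and 6.28). The median differences of the measured markers were -0.24 (adipocyte), -0.13 (endothelial), -0.13 (epithelial), -0.03 (leukocyte) and -0.0038 (neural). Each rests on 4 genes or fewer, and the adipocyte median was farther from 0 than the -0.18 of the 9 genes. Ptprc, Csf1r, Pecam1, Kdr, Adipoq and Epcam were below the floor on both arrays. Among 9 fibroblast and smooth muscle markers, which C2C12 cells also express, 8 were measured, and only Tagln (0.59) passed 1.5-fold. Esr1, the gene carried by the active vector, was 2.08-fold higher in Ad-caERα (8.44 against 7.38), though the labels do not give which part or species of receptor the vector encodes.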

How the data were processed

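The authors deposited a log2 signal for each probe set and culture, made with Affymetrix Expression Console and RMA, per the submitters' processing notes. RMA corrects background, equalises the arrays' distributions and summarises probes, so it compresses differences of weak signals and hides a change in total mRNA. Tool versions: not given in the sources used here. Depth has no meaning for arrays; their number limits the precision. The column medians were 6.05 (Ad-DsRed) and 6.02 (Ad-caERα) over 35556 probe sets, of which 21789 had 1 gene in the platform annotation, 1621 several and 12146 none; 21698 matched a RefSeq gene identifier and 0 symbols changed.

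For genes with several probe sets the brightest was used. The floor was the 95th percentile, over 1210 olfactory and vomeronasal receptor probe sets, of the higher of the 2 signals; a gene is measured when its higher signal passes it. Where the dimmer signal lay below the floor, the fold is a bound against the floor. Genes were counted by fold rules of 1.5 and 2. The 9 genes and all lists were chosen with earlier results of these data known. All 9 genes are named, and from each related list those past 1.5-fold and the 2 highest and 2 lowest. Itgb1, Ctnnb1, Hgf, Gab1, Shc1, Grb2, Ptpn11, Rapgef1, Sh3kbp1, Cbl, Pik3ca, Pik3r1, Sos1, Myog and Myod1 were added after their values were seen. So were cell type markers and genes below the floor. Counting was tested on simulated data at the 2-fold rule only, with shifts well past it, so calls near 1.5-fold were not tested. Python 3.11.15, numpy 2.4.6, pandas 2.3.3, statsmodels 0.14.6 and matplotlib 3.10.9 were used.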

Additional observations from a re-analysis of the deposited data

How the results depend on the processing

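No paired analysis was possible because a vector has only 1 array, which also leaves no replicate to omit. Under 7 other settings of floor, scaling and probe set rule, the difference of Mymx stayed between -0.83 and -0.79, that of Met between -0.61 and -0.57, that of Cdh15 between -0.30 and -0.27 and that of Mymk between -0.22 and -0.19. Cdon ranged from 0.04 to 0.18, and Boc from -0.03 to 0.0088, so that Boc has no settled direction. Because Met lies at the threshold, the number of the 9 genes lower by at least 1.5-fold was 2 under median centring, quantile normalization and loess correction, where 156, 113 and 106 of all 13554 measured genes were, and 0 with a 3-fold rule. Over all genes, 120 were lower and 247 higher by 1.5-fold; with a floor at the 99th percentile 79 were lower, and Cdon was no longer measured. By a 3-fold rule 27 genes were higher and 4 lower, against 80 and 13 at 2-fold. The 8 list medians, the 9 genes included, moved by less than the SD of 0.13 between probe sets of a gene in all 56 recalculations. That bound is larger in size than the main medians of the related lists, so it cannot show that those were stable. The median of the surface and membrane list ran from -0.07 to -0.01, and that of the 9 genes from -0.22 to -0.18. All 8 medians stayed below 0. The probe set rule could not move the 9 genes, which have 1 probe set each. Nor could the floor settings move a difference of theirs, since both signals of each lay above the main floor. The ranges of these genes thus come from median centring, which shifts every gene alike, quantile normalization and loess correction. Signals near the floor, as for Cdon, Dhh, Ncam2 and Hpn, limit what a difference can show. The dimmer signals of Ctnnd2 (5.31 in Ad-caERα), Elmo1 (5.40), Myf6 (5.48), Hgfac (5.54) and Spint1 (5.64, these in Ad-DsRed) were also little above the floor of 5.11.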
